A study of Marchantia polymorpha with 12 samples.

Results

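Mpmri-1 and Mpfer-1 are mutant lines of the liverwort Marchantia polymorpha, and their 6 libraries, of 12 in the series, were compared with each other directly. The libraries were taken by line name, and no measured value entered that choice. Mpmri-1 is a female line labelled as a knockdown of MpMRI, with 3 libraries. Mpfer-1 is a male line labelled as a knockdown of MpFER, with 3 libraries. Tak-2 is the female and Tak-1 the male wild type, with 3 libraries each, and they show which differences also exist between unmutated female and male plants. All plants were grown untreated from gemmae for 3 weeks on cellophane, at 21 °C and 16 h of light, and whole thalli with their rhizoids were sampled. The study asked which pathways the MpFER and MpMRI module regulates, and both lines have short rhizoids that burst. The sources used here state neither how the knockdowns were made nor how many independent plants stand behind each line. Line, targeted gene, sex and strain background therefore cannot be told apart in the direct comparison.

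FERONIA is a receptor-like kinase of the plasma membrane that, in Arabidopsis, binds RALF peptides and the cell wall and keeps growing cells from bursting. MARIS is a receptor-like cytoplasmic kinase that, in Arabidopsis, acts downstream of this receptor family in pollen tubes and root hairs. The liverwort plant is haploid and its sex is set by the chromosome it carries, U in females and V in males.

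Each library held between 25548031 and 35313206 estimated counts, of which the Mpmri-1 libraries held 26728644, 33798036 and 32576647 and the Mpfer-1 libraries 29022456, 28357937 and 35313206. Values below are CPM, counts scaled to a library of fixed size, corrected by the trimmed mean of M values (TMM), given in the order of libraries A, B and C with the SD over n = 3. The Mpmri-1 libraries were less alike (pairwise Spearman correlation 0.976 to 0.989) than the Mpfer-1 libraries (0.993 to 0.995), and between the lines the correlation was 0.937 to 0.960. In a principal component analysis of the 6 mutant libraries, the first component took 75.9% of the variance and separated the lines, while the second, with 12.6%, spread Mpmri-1 A and B away from C. Of the cell type markers, both genes of air chambers and photosynthetic tissue were higher in Mpmri-1 (1 without TMM), among them MpRBCS at 294, 191 and 184 CPM in Mpmri-1 and 77.3, 89.1 and 76.0 CPM in Mpfer-1. Oil body genes were higher in 2 of 4 members (in none without TMM), and neither of 2 gemma genes was called. MpRKD, listed for the egg, was lower in Mpmri-1 (log2 -0.49) and not called between the wild types (log2 0.11). It stood at 153, 149 and 146 CPM in Tak-2 and at 136, 141 and 136 CPM in Tak-1. Genes listed for sperm were lower in 2 of the 3 tested (in 1 when any 1 Mpfer-1 library or Mpmri-1 A was left out). Of the 3, MpCEN1 was higher in Tak-2 than in Tak-1 (log2 0.50), and MpDUO1 was not called between the lines (log2 0.59). MpRKD and MpCEN1 were thus expressed in both sexes. The sperm protamine gene MpPRM was at or below 0.0925 CPM in all 6 mutant libraries. Of all genes, 27.2% were called higher and 24.2% lower in Mpmri-1. In such whole-plant samples fewer cells of a type and less RNA per cell cannot be told apart, and the part of these markers in the results was not tested.

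MpMRI, the gene named as the target in Mpmri-1, was higher in the libraries labelled Mpmri-1 than in any other group. It stood at 698, 649 and 764 CPM in Mpmri-1, against 235, 212 and 231 CPM in Mpfer-1, a log2 fold change of 1.64 (SE 0.08, edgeR quasi-likelihood adjusted p = 3.23e-08). The groups did not overlap, and the wild types lay near Mpfer-1, at 264, 269 and 267 CPM in Tak-2 and 233, 234 and 241 CPM in Tak-1. The transcript level thus goes against the knockdown label, so every direction given for Mpmri-1 below is that of the libraries labelled Mpmri-1. MpFER, the target in Mpfer-1, stood at 214, 179 and 193 CPM in Mpmri-1 and at 102, 89.0 and 95.5 CPM in Mpfer-1 (log2 fold change 1.03, SE 0.08, edgeR adjusted p = 3.42e-06). The Mpfer-1 libraries were the lowest of all 12 for MpFER, in the direction of their label. Neither gene was called between Tak-2 and Tak-1 (log2 0.18 and adjusted p = 0.091 for MpMRI, log2 0.16 and adjusted p = 0.139 for MpFER, edgeR). Both differences between the mutant lines were larger than those between the wild types, by 1.46 for MpMRI and 0.87 for MpFER on the log2 scale (edgeR adjusted p = 3.6e-06 and 0.000208).

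The 9 genes listed for the FER and MRI pathway were all expressed well enough to test. Of these 5 were called (55.6%, against 51.4% of all genes), 4 higher and 1 lower in Mpmri-1. The counts became 3 and 2 without Mpfer-1 C, and 3 and 1 without Mpfer-1 A, Mpfer-1 B or Mpmri-1 A. Without TMM the balance turned to 2 higher and 5 lower, with a median log2 difference of -0.44. Among the ligands, MpRALF2 averaged 64.0 ± 9.75 CPM in Mpmri-1 and 46.0 ± 2.91 CPM in Mpfer-1 (log2 0.48, edgeR adjusted p = 0.00198). MpRALF1 stood at 152, 101 and 120 CPM in Mpmri-1 and 100, 97.0 and 97.8 CPM in Mpfer-1 (log2 0.33, edgeR adjusted p = 0.029). That call was lost without Mpmri-1 A (edgeR adjusted p = 0.104) and when Mpfer-1 A, B or C was left out (0.0703, 0.0893 and 0.0797). It was also lost when only the 6 mutant libraries were fitted (0.116). Without TMM MpRALF2 was no longer called (log2 0.04) and MpRALF1 turned to -0.10. MpRALF3 was not called, with a log2 difference of -0.25. Among the partners of the receptor, MpLRE2, of the LORELEI type that escorts FERONIA in Arabidopsis, fell to 17.5 ± 1.99 CPM in Mpmri-1, against 27.5 ± 2.18 CPM in Mpfer-1 (log2 -0.65, edgeR adjusted p = 0.000137). MpLRE1 (log2 -0.07), the RopGEF gene MpKAR (log2 -0.29) and the small GTPase gene MpROP (log2 -0.02) were not called. MpRALF1 and MpRALF3, MpLRE1, MpKAR and MpROP are named to complete the list.

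Across the genome the lines differed widely. Of 14044 genes tested, 7216 were called between Mpmri-1 and Mpfer-1 at an adjusted p under 0.05 in edgeR's quasi-likelihood test (51.4%), 3817 higher (27.2%) and 3399 lower (24.2%) in Mpmri-1. With a log2 difference of at least 1 as well, 1522 genes were called (10.8%), 928 higher and 594 lower. The wild types differed in fewer genes, 4934 called (35.1%), of which 2406 were higher (17.1%) and 2528 lower (18.0%) in Tak-2, and 1386 had a log2 difference of at least 1 (9.87%). The even split between higher and lower genes rests on the TMM scaling, whose factors were 0.798 to 0.932 in Mpmri-1 and 1.14 to 1.19 in Mpfer-1. With library totals alone the median of all genes moved to -0.42 on the log2 scale, against 0.01 with TMM, and 1446 genes were called higher and 7477 lower. Beside these factors, the 100 most abundant genes took 26.2% to 30.7% of counts in Mpmri-1 libraries and 18.2% to 19.8% in Mpfer-1 libraries.

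Most of these calls were not made between the wild types. Of the 7216 genes, 1905 were also called in the same direction between Tak-2 and Tak-1 (26.4% of the mutant calls and 38.6% of the wild-type calls), 835 were called in the opposite direction (11.6% and 16.9%), and 4476 were not called between the wild types. A missing call does not show that a gene is alike in the wild types, so the difference between the contrasts was tested itself. This is also the test of whether Mpmri-1 departs from Tak-2 differently than Mpfer-1 departs from Tak-1, and it called 5238 genes (37.3%). Of the 7216 genes called between the mutant lines, 3752 were called in it (52.0%). Among the 1522 genes with a log2 difference of at least 1, 431 shared the wild-type direction, 260 opposed it, 539 had no wild-type call and a called difference between the contrasts, and 292 had neither. Of the 431 with a shared direction, 294 did not differ measurably in size between mutants and wild types, while 137 did.

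**Figure D1:**
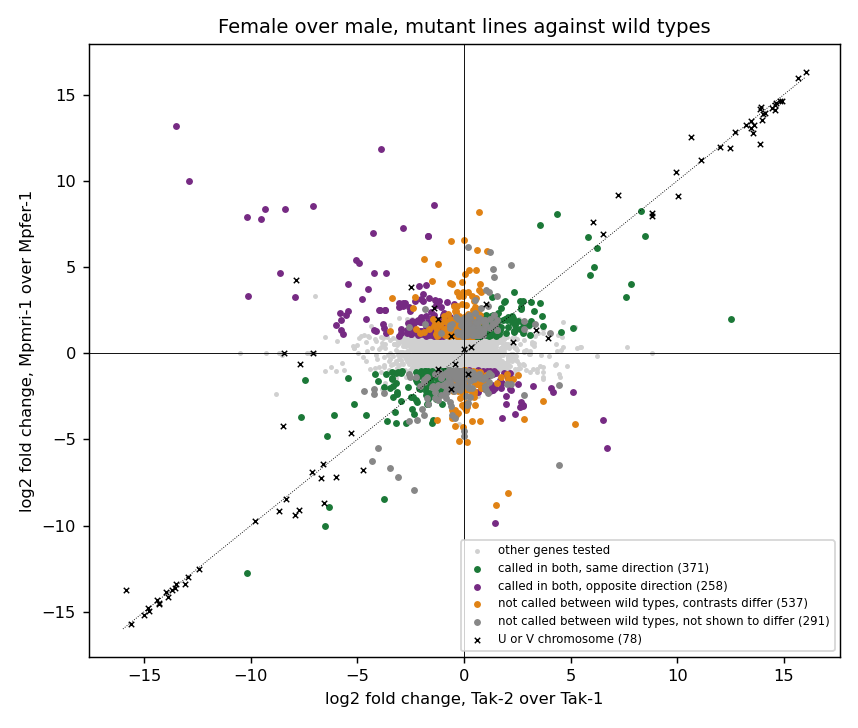
Each point is a gene, with the log2 fold change of Tak-2 over Tak-1 on the horizontal axis and of Mpmri-1 over Mpfer-1 on the vertical axis. Colours mark genes called with a log2 difference of at least 1 between the mutant lines, and crosses the 78 tested genes of the U and V chromosomes, most of which lie along the dotted line of equal change. Values far from 0 belong to genes with a group at or near 0 counts and depend on the prior count.

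Over all 14044 genes in the plot of both contrasts, the Pearson correlation of the log2 fold changes was 0.457 and Spearman's 0.155. Without the U and V genes they were 0.0263 and 0.144 over 13966 genes, so that the Pearson value rested on the sex chromosomes while the rank correlation stayed weak in both sets. The Pearson values include folds against groups at 0 counts, which depend on the prior count. Genes are not independent and these values are a description, from contrasts that share no library. Genes that shared a direction, with no called difference between the contrasts, had median absolute log2 differences of 0.577 between the mutants and 0.528 between the wild types. Genes not called between the wild types, with a called difference between the contrasts, had medians of 0.647 and 0.139. Calls on the same fold changes define both classes, so these medians follow from the selection and are no separate result.

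The position of each line relative to the wild type of its own sex was read for the 936 genes with a log2 difference of at least 1 and a called difference between the contrasts. Of the 645 that were higher in Mpmri-1, 301 (46.7%) had Mpmri-1 above Tak-2 while Mpfer-1 was below Tak-1. In 167 of the 645 (25.9%) both lines were above their wild types, and in 175 (27.1%) both were below. Of the 291 that were lower in Mpmri-1, 158 (54.3%) had Mpmri-1 below Tak-2 and Mpfer-1 above Tak-1. These are positions of group means and were not tested one by one. A called difference between the contrasts was a condition for these genes, so the shares partly follow from that selection. Among the 645, the reverse pattern, Mpmri-1 below Tak-2 and Mpfer-1 above Tak-1, was found in 2.

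Among autosomal genes whose difference between the mutant lines exceeded that between the wild types, Mp1g07780 showed the pattern of a gene low in Mpfer-1 alone. It stood at 20.5, 18.6 and 17.7 CPM in Mpmri-1 and at 0.0866, 0.493 and 0.0487 CPM in Mpfer-1, and at 18.7 ± 0.0897 CPM in Tak-2 and 18.6 ± 1.64 CPM in Tak-1. The mutant lines were far apart while the wild types overlapped (log2 6.56 between the mutants, edgeR adjusted p = 1.65e-07, and 0.01 between the wild types). Mp3g12700 gave 14.3, 16.5 and 14.7 CPM in Mpmri-1 and no count in any Mpfer-1 library, so that it was at least 547-fold higher, the floor being 3 counts over the group. Unlike in the mutants, Mp3g12700 was lower in the female wild type, at 1.04 ± 0.393 CPM in Tak-2 and 15.6 ± 0.931 CPM in Tak-1. Mp1g10370 and Mp5g21410 held identical counts in every library, as copies that share reads may, so their level of 94.7, 26.6 and 72.2 CPM in Mpmri-1 and 0.607, 0.555 and 0.584 CPM in Mpfer-1 is uncertain for either gene.

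Among genes with a symbol, several of those named for the largest excess in Mpmri-1 belong to families of defence and secondary metabolism. Only 3095 of 18336 genes had a symbol, and the 4 largest excesses of any kind, given above, were in genes without one. Genes named by the same rule for a lower level in Mpmri-1 include the peroxidase gene MpPOD4 and MpLOX3, MpLOX7 and MpLOX16. A trend of such families was thus not shown by these genes. MpPOD97, a class III peroxidase, stood at 4.55, 4.35 and 6.69 CPM in Mpmri-1, against 0.0866, 0.154 and 0.170 CPM in Mpfer-1 (log2 5.19, SE 0.54, edgeR adjusted p = 2.48e-05). MpNBS-LRR6, of the family of intracellular immune receptors, stood at 8.39, 9.77 and 16.1 CPM in Mpmri-1 and at 1.10, 0.740 and 0.292 CPM in Mpfer-1 (log2 4.03, edgeR adjusted p = 1.59e-05). The rule that named both genes admits only genes whose lines do not overlap, which holds for 55.6% of all tested genes. In both the wild types averaged below 2 CPM. MpDIR7, a dirigent protein gene of the kind that guides the coupling of phenolic radicals, stood at 25.9, 18.6 and 14.7 CPM in Mpmri-1 and at 2.25, 3.24 and 1.12 CPM in Mpfer-1 (log2 3.18, edgeR adjusted p = 1.78e-05). Between the wild types MpDIR7 ran the other way, at 2.33 ± 0.256 CPM in Tak-2 and 7.34 ± 0.521 CPM in Tak-1. MpDOXC16, a 2-oxoglutarate-dependent dioxygenase, rose by 3.01 and the cytochrome P450 gene MpCYP829-like42 by 2.73 on the log2 scale (edgeR adjusted p = 2e-05 and 3.39e-06). MpPR1, a pathogenesis-related gene, stood at 2.02, 1.89 and 2.18 CPM in Mpmri-1 and at 0.231, 0.216 and 0.414 CPM in Mpfer-1 (log2 2.77, edgeR adjusted p = 6.78e-06). Its levels in the wild types ran the other way, at 2.68 ± 0.389 CPM in Tak-2 and 6.71 ± 0.394 CPM in Tak-1.

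In the other direction, Mp6g10280 was almost silent in Mpmri-1, with 1, 2 and 1 counts, against 46.0, 47.2 and 52.1 CPM in Mpfer-1. Both wild types expressed it, at 39.2 CPM on average in Tak-2 and 14.3 CPM in Tak-1, so the low group was Mpmri-1 alone. Mp2g21700 had the same shape, at 0.563, 0.135 and 0.659 CPM in Mpmri-1, against 15.5, 14.3 and 18.4 CPM in Mpfer-1 (log2 -5.16). Its wild types averaged 13.7 CPM in Tak-2 and 12.3 CPM in Tak-1. MpC2H2-23, a zinc finger gene, was high in Mpfer-1 instead, at 2.11, 7.72 and 2.54 CPM in Mpmri-1 and 48.5, 52.5 and 49.0 CPM in Mpfer-1, with both wild types below 0.4 CPM on average (log2 -3.58). MpFBW3 stood at 4.83, 4.99 and 4.25 CPM in Mpmri-1 and at 39.6, 37.4 and 38.9 CPM in Mpfer-1, while the female wild type was the higher one, at 13.6 CPM in Tak-2 and 1.99 CPM in Tak-1. The log2 difference for MpFBW3 was -3.04 between the mutants and 2.77 between the wild types (edgeR adjusted p = 9.16e-09 for the mutants). MpPOD4, another class III peroxidase, fell to 0.281, 0.506 and 0.626 CPM in Mpmri-1, against 5.20, 5.21 and 3.85 CPM in Mpfer-1 (log2 -3.28, edgeR adjusted p = 1.71e-05).

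**Figure D2:**
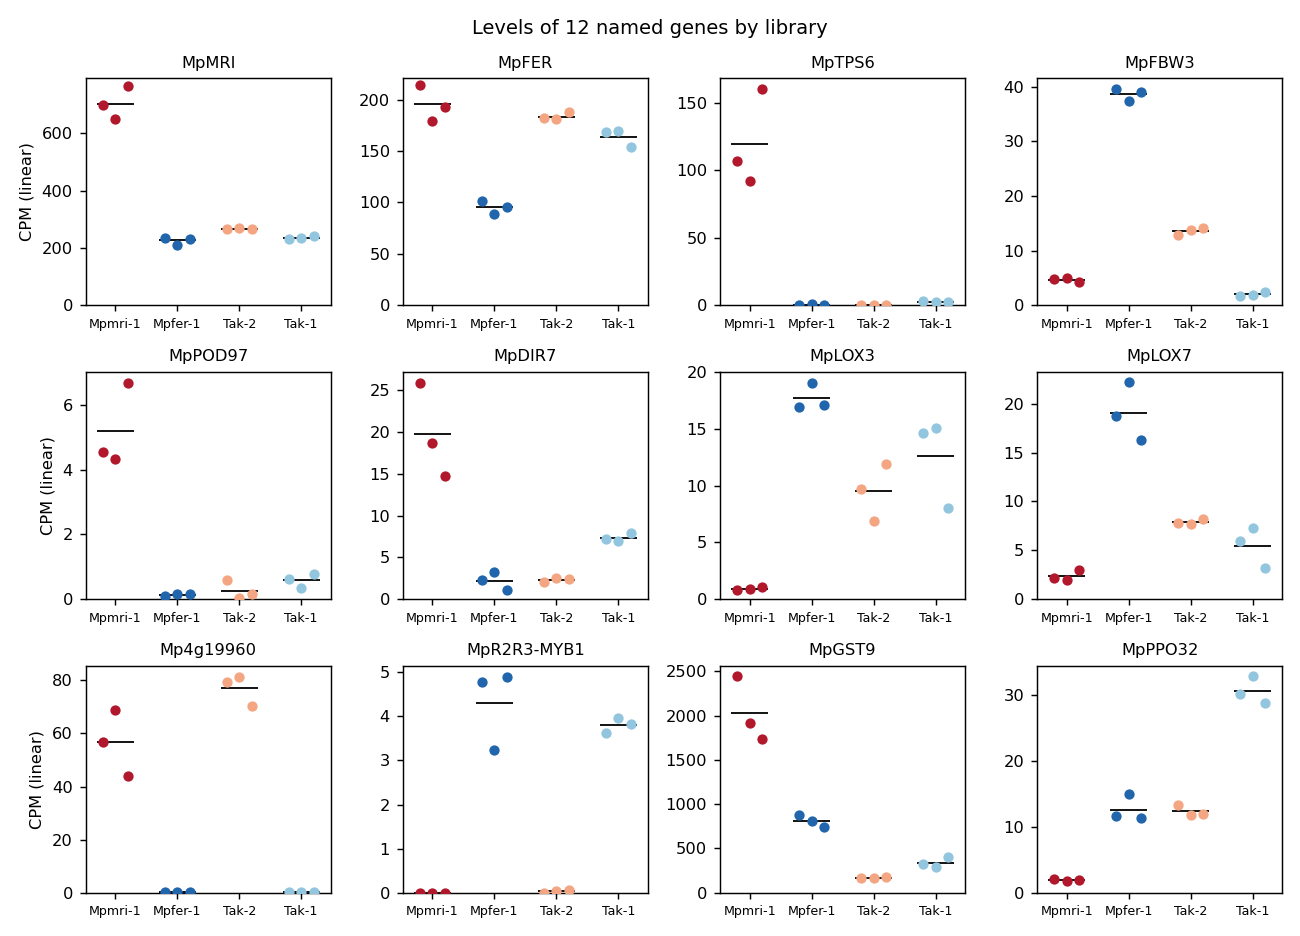
Levels of 12 named genes in CPM on a linear axis from 0, with a point for each library and a bar at the group mean, for Mpmri-1, Mpfer-1, Tak-2 and Tak-1. MpMRI is highest in the 3 libraries labelled Mpmri-1 and MpFER lowest in the 3 of Mpfer-1. MpLOX3 and MpLOX7 are high in Mpfer-1 and low in Mpmri-1. Mp4g19960 and MpR2R3-MYB1 separate the lines as they separate the wild types.

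Most tested genes of the sex chromosomes differed in both contrasts. Of 34 tested U genes, 33 were called and all 33 were higher in Mpmri-1, and of 44 tested V genes, 34 were called, 32 of them lower in Mpmri-1. Between the wild types 33 U genes were higher and 1 lower in Tak-2, and 2 V genes were higher and 36 lower. Called in both contrasts with the same direction were 32 U and 29 V genes, and with opposite directions 1 of each. The summed V counts followed these calls between the mutant lines, at 30773, 16049 and 17101 in Mpmri-1 and 70241, 72045 and 88165 in Mpfer-1. Between the wild types they did not, at 249409, 426819 and 199207 in Tak-2 and 56800, 87512 and 125297 in Tak-1. A single locus carried most of the Tak-2 sums, MpVg01240, chosen after its values were seen, and without it they were 1564 to 2099 in Tak-2 and 51322 to 58603 in Tak-1. MpVg01240 stood at 1339, 406 and 394 CPM in Mpmri-1 and 151, 376 and 303 CPM in Mpfer-1 and was not called between them (log2 1.36, edgeR adjusted p = 0.129). The small GTPase gene MpRAB11AX, on the U chromosome, stood at 293, 244 and 236 CPM in Mpmri-1 and had no count in Mpfer-1, which makes it at least 9285-fold higher, and at least 6907-fold higher in Tak-2 than in Tak-1. MpUg00020, at 351, 328 and 328 CPM in Mpmri-1 and no count in Mpfer-1, was at least 12099-fold higher. The V gene MpVg00970 had no count in Mpmri-1 and stood at 220, 220 and 211 CPM in Mpfer-1, at least 5890-fold lower in Mpmri-1. MpVg00760 had 1 count over the Mpmri-1 libraries and 222, 230 and 224 CPM in Mpfer-1, a ratio of 18329-fold lower with a 95% exact binomial interval of 3289 to 723979 for counting error only. The 2 V loci called higher in Mpmri-1, chosen after their values were seen, were MpVg00515, at 1.50, 1.42 and 1.42 CPM in Mpmri-1 and 0.173, 0.247 and 0.268 CPM in Mpfer-1, and MpVg00900, with a log2 difference of 2.83. Females carry no V and males no U chromosome, so counts at V loci in females are not a measure of V genes. Counts at U loci in males summed to 11569 to 13941 in Mpfer-1 and 18653 to 20101 in Tak-1. The source of such counts was not tested.

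On the autosomes the clearest shared difference was Mp4g19960. It stood at 56.9, 69.0 and 44.2 CPM in Mpmri-1 and 0.144, 0.154 and 0.243 CPM in Mpfer-1, and averaged 77.1 CPM in Tak-2 and 0.240 CPM in Tak-1. Its log2 difference was 8.23 between the mutant lines (edgeR adjusted p = 1.16e-09) and 8.32 between the wild types. Mp3g11970 (log2 6.08 between mutants and 6.23 between wild types) and Mp4g23160 (4.98 between mutants) were likewise on the female side. Mp1g22380 differed by 4.53, but its Mpmri-1 libraries were uneven, at 43.1, 45.6 and 6.69 CPM, against 1.36, 1.79 and 0.998 CPM in Mpfer-1. On the male side, MpR2R3-MYB1, a gene of the MYB family of transcription factors, had no count in Mpmri-1 and stood at 4.77, 3.24 and 4.89 CPM in Mpfer-1, at least 117-fold lower in Mpmri-1. It had 3 counts over the Tak-2 libraries and 3.81 ± 0.169 CPM in Tak-1. Mp4g20540 had no count in Mpmri-1 and 31.1, 26.3 and 27.4 CPM in Mpfer-1 (at least 766-fold lower), with 1 count over Tak-2 and 19.3 ± 1.20 CPM in Tak-1. Mp7g11270 had no count in Mpmri-1 or Tak-2 and stood at 1.88, 1.69 and 2.46 CPM in Mpfer-1, which makes it at least 54.5-fold lower in Mpmri-1. Its mean in Tak-1 was only 0.329 CPM, against 2.01 CPM in Mpfer-1. Counting as on a gene with a mean of at least 1 CPM in 1 mutant line and at most 3 counts over the 3 libraries of the other, 27 U genes were on in Mpmri-1 and Tak-2, and 21 V genes were on in Mpfer-1, 19 of them also in Tak-1. Of 15 such autosomal genes, 8 were on in Mpmri-1 and 7 in Mpfer-1, and 4 of the 15 had a mean of at least 1 CPM in the wild type of the same sex and not in the other wild type.

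In other autosomal genes the higher mutant line was of the sex opposite to that of the higher wild type. Mp3g10460 stood at 40.5, 41.3 and 31.5 CPM in Mpmri-1 and had no count in Mpfer-1, while in the wild types it had no count in Tak-2 and stood at 44.5, 53.5 and 47.3 CPM in Tak-1. Mpmri-1 was thus at least 1362-fold above Mpfer-1, while Tak-2 was at least 1302-fold below Tak-1. Mp6g09290 stood at 68.2, 59.0 and 53.4 CPM in Mpmri-1 and at 0, 0.185 and 0 CPM in Mpfer-1, with no count in Tak-2 and 30.8 ± 2.70 CPM in Tak-1. MpTPS6, a terpene synthase gene, reached 106, 91.8 and 160 CPM in Mpmri-1 and 0.433, 0.647 and 0.0730 CPM in Mpfer-1 (log2 8.34, edgeR adjusted p = 4.98e-07), with no count in Tak-2 and 2.67 ± 0.207 CPM in Tak-1. MpCYP704-like8, a cytochrome P450 gene, was the reverse, at 0.516, 0.101 and 0.198 CPM in Mpmri-1 and 10.1, 11.1 and 12.6 CPM in Mpfer-1, but 74.2 ± 1.16 CPM in Tak-2 and 0.696 ± 0.311 CPM in Tak-1. Its log2 difference was -5.48 between the mutants and 6.72 between the wild types, 12.20 lower in the mutants (edgeR adjusted p = 1.18e-08).

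Over all 4842 autosomal genes called between Tak-2 and Tak-1, 1836 (37.9%) were called in the same direction between the mutant lines and 827 (17.1%) in the opposite one. Among the genes that separated the wild types most, both directions were about equally frequent. Of 1301 autosomal genes called between Tak-2 and Tak-1 with a log2 difference of at least 1, 316 (24.3%) were called in the same direction between the mutant lines, 322 (24.8%) in the opposite direction, and 663 were not called. For comparison, 27.2% of all tested genes were called higher and 24.2% lower in Mpmri-1. The shares of the 1301 genes lay near these, and whether they differ was not tested. The shares with the same and with the opposite direction varied between chromosomes. On chromosome 1, 43 genes had the same and 20 the opposite direction of 146, on chromosome 4, 74 and 41 of 216, and on chromosome 7, 33 and 17 of 103. On chromosome 3 it was 43 with the same and 80 with the opposite direction of 224, on chromosome 5, 25 and 44 of 163, and on chromosome 8, 32 and 56 of 161. The genes of a chromosome are not independent of each other, and the difference between chromosomes was not tested.

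**Figure D3:**
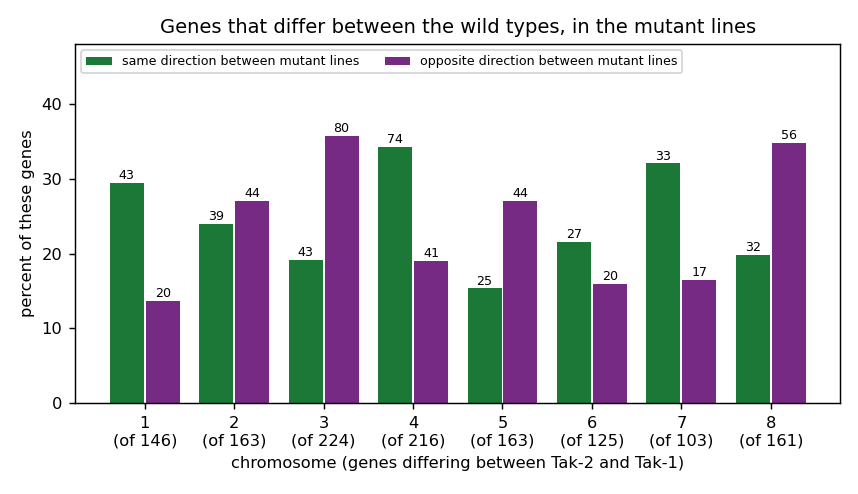
For each autosome, the percent of genes that differed between Tak-2 and Tak-1 by a log2 of at least 1 which were called in the same or in the opposite direction between Mpmri-1 and Mpfer-1. Chromosome 1 has 29.5% in the same and 13.7% in the opposite direction.

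Gene families of defence and specialised metabolism differed in how many of their members were higher in Mpmri-1. Of all genes 27.2% were called higher and 24.2% lower, with a median log2 difference of 0.01. Of 33 glutathione transferases tested (35 listed), 21 rose (63.6%) and 2 fell in Mpmri-1, with a median of 0.52. Of 24 type III polyketide synthases tested (27 listed), the family of chalcone synthase, 13 rose (54.2%) and 1 fell, with a median of 0.57. Of 34 pathogenesis-related genes tested (49 listed), 16 rose (47.1%) and 6 fell, with a median of 0.90. Other families lay near the share of all genes. DOXC dioxygenases rose in 9 of 30 tested members (30.0%) and fell in 6, and class III peroxidases rose in 33 of 129 (25.6%) and fell in 18. UDP-glycosyltransferases rose in 10 and fell in 5 of 32 tested members, and fell in 8 without Mpmri-1 B. Without TMM these became 4 higher and 13 lower for the dioxygenases and 3 higher and 14 lower for the glycosyltransferases. These shares are descriptions, and no list was tested against the rest. Without TMM the glutathione transferases, polyketide synthases and pathogenesis-related genes kept medians above 0, at 0.09, 0.14 and 0.45 in that order, while all genes moved to -0.42, and their calls became 7 higher and 8 lower, 7 and 4, and 9 and 9. Between the wild types the balance of these 3 lists was 8 higher and 7 lower, 3 and 11, and 3 and 7 in Tak-2.

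MpGST9, an abundant glutathione transferase, stood at 2444, 1920 and 1730 CPM in Mpmri-1 and at 880, 814 and 741 CPM in Mpfer-1 (log2 1.32, edgeR adjusted p = 3.09e-05). Both lines were above the wild types for MpGST9, which averaged 171 CPM in Tak-2 and 341 CPM in Tak-1. The pathogenesis-related gene MpPR5b stood at 425, 353 and 374 CPM in Mpmri-1 and at 169, 143 and 125 CPM in Mpfer-1 (log2 1.39, edgeR adjusted p = 0.000892), and it differed by -1.63 between the wild types. MpPR1a was at 48.9, 49.5 and 22.6 CPM in Mpmri-1 and 13.1, 10.5 and 5.21 CPM in Mpfer-1 (log2 2.07). In these genes the lines did not overlap, as in 55.6% of all tested genes, although library C was the lowest of Mpmri-1 for MpPR1a and MpGST9. Summed over the list, pathogenesis-related genes reached 3192, 3361 and 1905 CPM in Mpmri-1 and 1641, 1479 and 1159 CPM in Mpfer-1. The wild types stayed at or below 85.2 CPM in Tak-2 and 269 CPM in Tak-1 for this sum. MpPKS/CHS21 stood at 96.4, 77.7 and 109 CPM in Mpmri-1 and at 42.9, 41.0 and 33.5 CPM in Mpfer-1 (log2 1.27, edgeR adjusted p = 5.76e-05), and MpPKS/CHS-like2 rose by 4.43 on the log2 scale, at 8.63, 7.62 and 5.47 CPM in Mpmri-1 and below 0.5 CPM in each Mpfer-1 library. The balance of pathogenesis-related calls rested on single libraries, at 10 higher and 7 lower without Mpfer-1 C, 11 and 2 without Mpmri-1 A, 15 and 3 without Mpfer-1 A, and 16 and 3 without Mpmri-1 B.

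**Figure D4:**
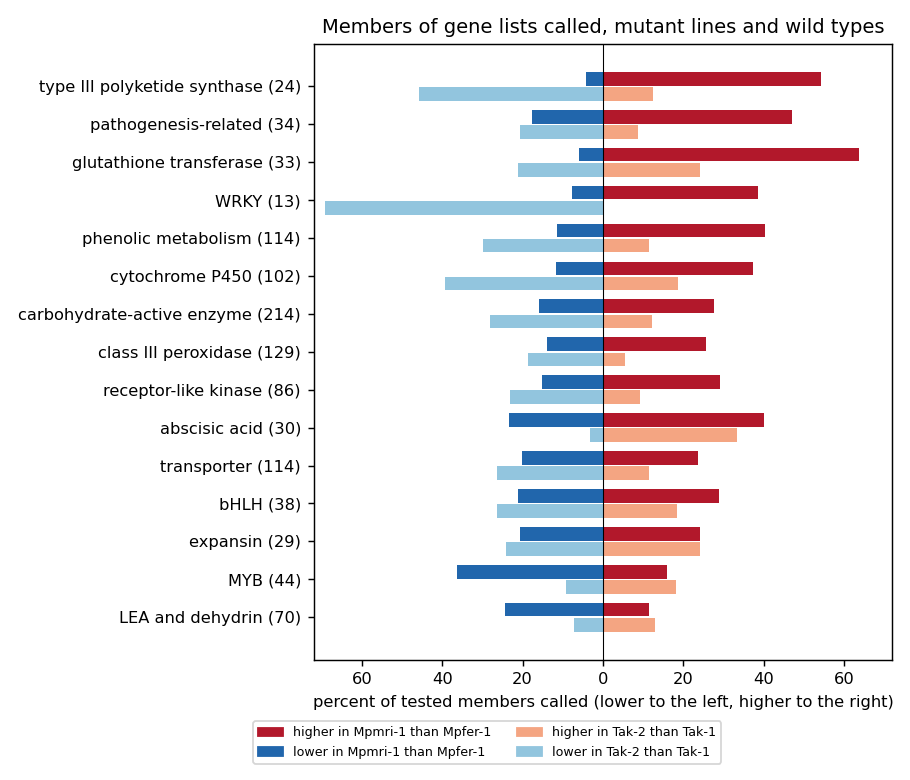
Percent of the tested members of 15 gene lists called higher (right) or lower (left), in the darker bars for Mpmri-1 against Mpfer-1 and in the paler bars for Tak-2 against Tak-1. The number tested stands in brackets. Glutathione transferases, polyketide synthases and pathogenesis-related genes lie mostly to the right in the mutants with the TMM scaling used here. LEA and MYB genes have more called members to the left than to the right. The LEA share to the left, 24.3%, is near the 24.2% of all genes.

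Phenolic metabolism and the cytochrome P450 family held more higher than lower members with TMM scaling. Of 114 genes of phenolic metabolism tested (140 listed), 46 rose (40.4%) and 13 fell with a median of 0.35, and of 102 cytochrome P450 genes tested (129 listed), 38 rose (37.3%) and 12 fell with a median of 0.32. Without TMM those medians turned to -0.07 and -0.10, still above that of all genes, and the calls to 30 higher and 30 lower and to 15 higher and 31 lower. Among the members, the dirigent gene MpDIR22 stood at 38.8, 33.3 and 30.7 CPM in Mpmri-1 and 15.1, 11.8 and 10.7 CPM in Mpfer-1 (log2 1.45), and the cytochrome P450 gene MpCYP818A1 at 82.7, 54.0 and 79.4 CPM in Mpmri-1 and 21.2, 29.1 and 21.6 CPM in Mpfer-1 (log2 1.59). Polyphenol oxidases, which oxidise phenols to quinones, moved both ways. MpPPO32 fell to 2.16, 1.85 and 1.88 CPM in Mpmri-1, against 11.6, 14.9 and 11.3 CPM in Mpfer-1 (log2 -2.69, edgeR adjusted p = 6.43e-08), more than between the wild types (log2 -1.31). MpPPO24 stood at 1.17, 1.15 and 1.19 CPM in Mpmri-1 and had 4 counts over Mpfer-1. Of the 129 class III peroxidases tested (164 listed), 39.5% were called, against 51.4% of all genes, and the excess of higher members was not stable. It became 15 higher and 32 lower without TMM, 21 and 18 without Mpfer-1 A, and 25 and 22 without Mpmri-1 C. Their summed level was 6611, 6255 and 5710 CPM in Mpmri-1 and 3602, 3402 and 3676 CPM in Mpfer-1. Of 23 terpene synthases tested (38 listed), 10 rose and 3 fell with TMM (9 and 1 without Mpmri-1 A). These are 43.5% and 13.0%, against 27.2% and 24.2% of all genes. Without TMM 7 rose and 6 fell. The member MpMTPSL5 fell to 1.55, 1.55 and 1.58 CPM in Mpmri-1, against 7.08, 5.55 and 6.74 CPM in Mpfer-1 (log2 -2.05).

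**Figure D5:**
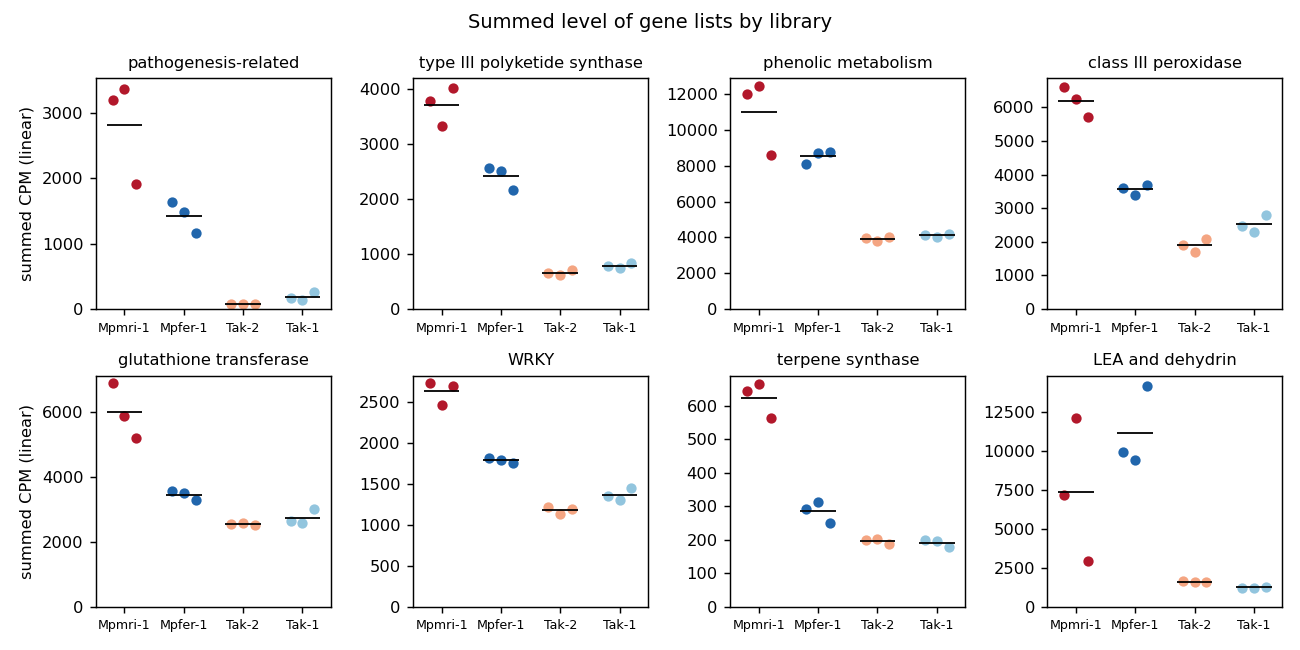
Summed CPM of 8 gene lists in each library on linear axes from 0, with a bar at the group mean. The pathogenesis-related sum lies between 1905 and 3361 CPM in Mpmri-1 and between 1159 and 1641 CPM in Mpfer-1, and the LEA sum of Mpmri-1 spreads between 2905 and 12081 CPM across its libraries.

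WRKY transcription factors, several of which regulate defence genes in flowering plants, were called higher in 5 and lower in 1 of 13 tested members (14 listed). These are 38.5% and 7.69%, against 27.2% and 24.2% of all genes. The WRKY counts became 5 higher and 2 lower without Mpfer-1 C, and 1 higher and 3 lower without TMM. Between the wild types none was higher and 9 were lower in Tak-2. The difference between the contrasts was called in 9 members. In all of these, Mpmri-1 over Mpfer-1 was the more positive contrast, which does not mean higher levels in both mutant lines. MpWRKY11, the most abundant of those named, stood at 2185, 1945 and 2165 CPM in Mpmri-1 and at 1361, 1364 and 1322 CPM in Mpfer-1 (log2 0.64). MpWRKY3, chosen after its values were seen, stood at 18.2, 14.8 and 19.2 CPM in Mpmri-1 and at 11.6, 9.83 and 6.18 CPM in Mpfer-1 (log2 0.92, edgeR adjusted p = 0.0044, and 0.0707 without TMM). The groups did not overlap for MpWRKY3, as for 55.6% of all tested genes. MpWRKY3 differed by -4.45 between the wild types.

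Lipoxygenases oxygenate polyunsaturated fatty acids and open the pathway to oxylipins, and their members split between the lines. Of 18 jasmonate and oxylipin genes tested (19 listed), 7 rose (38.9%) and 6 fell (33.3%) in Mpmri-1, against 27.2% and 24.2% of all genes. Without TMM 3 rose and 8 fell. MpLOX3 fell to 0.797, 0.876 and 1.09 CPM in Mpmri-1, against 17.0, 19.1 and 17.1 CPM in Mpfer-1 (log2 -4.25). MpLOX7 fell to 2.11, 1.95 and 2.97 CPM in Mpmri-1, against 18.7, 22.2 and 16.3 CPM in Mpfer-1 (log2 -3.02), and MpLOX16 to 2.25, 1.95 and 4.48 CPM in Mpmri-1, against 20.7, 30.8 and 15.0 CPM in Mpfer-1 (log2 -2.92). The rule that named these genes admits only genes without overlap of the lines and with a called excess over the wild-type difference. Neither trait is thus a separate result. The excess was -3.85, -3.55 and -1.87 on the log2 scale for MpLOX3, MpLOX7 and MpLOX16. MpLOX1, chosen after its values were seen, went the other way and was far more abundant, at 145, 112 and 171 CPM in Mpmri-1 and 54.9, 36.5 and 35.8 CPM in Mpfer-1 (log2 1.75, edgeR adjusted p = 0.000156), with 3.61 ± 0.218 CPM in Tak-2 and 9.52 ± 3.72 CPM in Tak-1. MpMYCX, the U-linked copy of the jasmonate-pathway transcription factor, stood at 23.0, 30.2 and 33.0 CPM in Mpmri-1 and had no count in Mpfer-1. The receptor gene MpCOI1 and the repressor gene MpJAZ were not called.

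Genes of the cell wall and its sensing, the process that the FER and MRI module serves, moved in both directions. Of 29 expansins tested (37 listed), wall-loosening proteins, 7 rose (24.1%, against 27.2% of all genes) and 6 fell, against 4 and 5 without Mpfer-1 C and 2 and 11 without TMM. MpExpansin14 fell to 21.3, 23.3 and 14.4 CPM in Mpmri-1, against 57.0, 60.9 and 64.2 CPM in Mpfer-1 (log2 -1.63), and the wild types differed in the same direction (log2 -1.24). MpExpansin4 stood at 6.47, 8.19 and 11.4 CPM in Mpmri-1 and 2.11, 2.96 and 2.95 CPM in Mpfer-1 (log2 1.70), and the difference from the wild-type contrast was called (1.18, edgeR adjusted p = 0.013). Of 214 carbohydrate-active enzymes tested (242 listed), 59 rose and 34 fell (43.5% called, against 51.4% of all genes), and 13 rose and 95 fell without TMM. The glycoside hydrolase family member MpGH18.1, of the chitinase-containing family, stood at 35.7, 21.9 and 31.3 CPM in Mpmri-1 and 6.12, 5.70 and 6.91 CPM in Mpfer-1 (log2 2.24, edgeR adjusted p = 6.52e-06). The glycosyltransferase gene MpGT8.11 had no count in Mpmri-1 and 1.50, 2.25 and 1.85 CPM in Mpfer-1, at least 50.6-fold lower, with 3 counts over Tak-2 and 1 over Tak-1. Of 86 receptor-like kinases tested (96 listed), 25 rose (29.1%) and 13 fell (15.1%), against 27.2% and 24.2% of all genes. Without TMM 10 rose and 41 fell. MpRLK-Pelle_WAK5, of the wall-associated kinase family, fell to 1.22, 1.25 and 1.32 CPM in Mpmri-1, against 5.08, 4.50 and 3.94 CPM in Mpfer-1 (log2 -1.83), while it was higher in Tak-2 than in Tak-1 (log2 1.33). MpRLK-Pelle_LysM5, of the family that binds chitin-like sugars, stood at 260, 233 and 253 CPM in Mpmri-1 and 154, 133 and 117 CPM in Mpfer-1 (log2 0.88).

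LEA proteins and dehydrins, which protect cells during drying, were uneven within Mpmri-1. Of 70 tested (72 listed), 8 rose and 17 fell (4 and 39 without TMM). The share that fell, 24.3%, was near the 24.2% of all genes, and 35.7% were called, against 51.4% of all genes. The median was -0.74, and the median between the wild types was 0.47. Their summed level was 7138, 12081 and 2905 CPM in Mpmri-1 and 9907, 9404 and 14137 CPM in Mpfer-1. It was far lower in both wild types, at 1559 to 1676 CPM in Tak-2 and 1228 to 1299 CPM in Tak-1. The mutant lines overlapped, and the count of lower members rested on single libraries. It was 42 without Mpmri-1 B, 9 without Mpmri-1 A and 8 without Mpfer-1 C. Named members that rose with the wild-type direction did not overlap between the lines, as 55.6% of all tested genes did not. MpDHN2, a dehydrin, stood at 156, 160 and 99.6 CPM in Mpmri-1 and 31.2, 31.2 and 43.2 CPM in Mpfer-1 (log2 1.97 between the mutants and 2.10 between the wild types), and MpLEA-like33 at 141, 138 and 94.5 CPM in Mpmri-1 and 33.4, 36.1 and 34.9 CPM in Mpfer-1 (log2 1.84 and 1.38). MpLEA-like50, chosen after its values were seen, stood at 125, 311 and 71.3 CPM in Mpmri-1 and 342, 303 and 526 CPM in Mpfer-1 (log2 -1.20, edgeR adjusted p = 0.0258). Its lines overlapped, and its call was lost without Mpmri-1 A (0.0965) or Mpfer-1 C (0.0982). It was also lost when only the 6 mutant libraries were fitted (edgeR adjusted p = 0.0884).

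Abscisic acid, the hormone of drought responses, had 30 listed genes tested (of 38). With TMM scaling 12 rose and 7 fell in Mpmri-1, and without it 0 rose and 17 fell. The share that rose with TMM was above the 27.2% of all genes. The share that fell, 23.3%, was near the 24.2% of all genes. The counts became 8 and 7 without Mpfer-1 A and 10 and 10 without Mpmri-1 B. They were 10 and 7 without Mpfer-1 B or C, 11 and 8 without Mpmri-1 C, and unchanged without Mpmri-1 A. The receptor gene MpPYL1 stood at 200, 176 and 186 CPM in Mpmri-1 and 132, 143 and 134 CPM in Mpfer-1 (log2 0.46 with TMM, and not called without it). The kinase gene MpSNRK2B stood at 70.6, 70.9 and 73.7 CPM in Mpmri-1 and 47.4, 45.8 and 49.9 CPM in Mpfer-1 (log2 0.59). Other members, chosen after their values were seen, were lower. MpNCED, of the enzyme family that cleaves carotenoids in abscisic acid synthesis, stood at 2.86, 2.97 and 1.05 CPM in Mpmri-1 and 4.36, 4.38 and 6.79 CPM in Mpfer-1 (log2 -1.19, edgeR adjusted p = 0.00837). MpABA4 averaged 30.8 ± 4.66 CPM in Mpmri-1 and 51.7 ± 9.77 CPM in Mpfer-1 (log2 -0.75), and the transcription factor gene MpABI5B differed by -0.59 (edgeR adjusted p = 0.00575).

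Of 32 auxin genes tested (38 listed), 9 rose (28.1%, against 27.2% of all genes) and 3 fell, and 37.5% were called, against 51.4% of all genes. The counts became 6 and 1 without Mpfer-1 C, 9 and 1 without Mpfer-1 A or Mpmri-1 A, and 3 and 11 without TMM. MpSAUR3, of the small auxin-up RNA family, stood at 81.6, 65.3 and 69.9 CPM in Mpmri-1 and 21.0, 20.9 and 18.4 CPM in Mpfer-1 (log2 1.85, edgeR adjusted p = 3.55e-08), and was lowest in Mpfer-1 of the 4 groups. MpSAUR1 rose by 1.23 between the mutants and by 1.37 between the wild types on the log2 scale. Of 9 cytokinin genes tested (10 listed), 5 rose (55.6%) and 3 fell (33.3%), against 27.2% and 24.2% of all genes. Without TMM 2 rose and 5 fell. The receptor gene MpCHK2 fell to 3.33, 3.77 and 3.03 CPM in Mpmri-1, against 8.35, 8.66 and 9.15 CPM in Mpfer-1 (log2 -1.37), and the synthesis gene MpIPT1 to 4.73, 5.49 and 6.92 CPM in Mpmri-1, against 11.0, 11.9 and 11.3 CPM in Mpfer-1 (log2 -0.99). The activating enzyme gene MpLOG (log2 0.63) and the response regulator gene MpRRA (log2 0.53) rose with TMM, and MpRRA was not called without it.

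Among transcription factors, the MYB family had more members lower than higher, with 7 rising and 16 falling of 44 tested (59 listed). These are 15.9% and 36.4%, against 27.2% and 24.2% of all genes. Without TMM 2 MYB genes rose and 31 fell. Between the wild types 8 were higher and 4 lower in Tak-2. MpRR-MYB6 fell to 17.1, 22.4 and 25.9 CPM in Mpmri-1, against 42.0, 42.4 and 40.9 CPM in Mpfer-1 (log2 -0.94), while Tak-2 and Tak-1 averaged 41.3 and 41.9 CPM. Of 38 bHLH genes tested (50 listed), 11 rose (28.9%) and 8 fell (21.1%), near the shares of all genes. Without TMM 3 rose and 21 fell. MpBHLH16 fell to 4.41, 3.94 and 4.32 CPM in Mpmri-1, against 14.7, 16.4 and 15.2 CPM in Mpfer-1 (log2 -1.87), and differed by -1.55 between the wild types. MpCYCD_2, a D-type cyclin gene, was the sole called member of 8 cell cycle genes tested (9 listed), with 2 called without Mpmri-1 B or C. This is 12.5%, against 51.4% of all genes. MpCYCD_2 stood at 17.1, 14.3 and 19.9 CPM in Mpmri-1 and 7.68, 5.08 and 6.86 CPM in Mpfer-1 (log2 1.38).

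The most abundant genes called higher in Mpmri-1 with a log2 difference of at least 1 were Mp4g10850, Mp7g06790 and Mp7g09180, for which the reference used here gives no symbol. Mp4g10850 stood at 16597, 12467 and 12610 CPM in Mpmri-1 and at 4998, 6052 and 5284 CPM in Mpfer-1 (log2 1.35, edgeR adjusted p = 4.8e-05), with 17092 CPM on average in Tak-2 and 13731 CPM in Tak-1. The Mpfer-1 libraries were thus the low ones. Mp7g06790 (log2 1.29) and Mp7g09180 (log2 1.50) had the same order of lines. MpRBCS, the small subunit of Rubisco, stood at 294, 191 and 184 CPM in Mpmri-1 and 77.3, 89.1 and 76.0 CPM in Mpfer-1 (log2 1.46), and differed by -0.77 between the wild types. Among abundant genes lower in Mpmri-1, Mp1g03140, MpDIR45 and Mp1g24800 had log2 differences of -1.14, -1.28 and -1.11, with Mpmri-1 C the lowest library in each. All lost their call when only the 6 mutant libraries were fitted (edgeR adjusted p = 0.0987, 0.0575 and 0.0749) and without Mpmri-1 A (0.109, 0.0528 and 0.0892). Mp1g03140 and Mp1g24800 lost it without Mpfer-1 C as well (0.114 and 0.0806), and Mp1g03140 without Mpfer-1 A (0.0512).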

How the data were processed

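RNA from 12 libraries of Marchantia polymorpha was prepared as strand-specific mRNA libraries, per the labels' protocols. The authors deposited a single table of estimated counts per transcript, and 65.5% of its values were whole numbers. FastQC, fastp and DESeq2 were used, per the submitters' processing notes. The sources used here name no aligner, counting tool or genome build, so no coordinates are printed. The labels mention spike-in RNA, and 0 spike-in identifiers were found in the table.

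From there, 23399 transcript rows were summed to 18336 genes by removing the final dot and number, and sums were rounded, by at most 0.5. The 14044 genes passing edgeR's expression filter were fitted together in all 12 libraries with 1 mean per group (edgeR 4.0.16 in R 4.3.3, TMM, quasi-likelihood F test, Benjamini-Hochberg adjustment over all genes tested). The contrasts were Mpmri-1 over Mpfer-1, Tak-2 over Tak-1, and their difference. Calls needed an adjusted p below 0.05. CPM were computed here with TMM and are not corrected for transcript length. Nothing says whether replicates were separate cultures, so p-values measure only the spread between these samples, which may be technical. DESeq2 1.42.0, limma 3.58.1 voom, other scalings and filters, and fits without each library were tried as alternatives. Letters A, B and C were not treated as pairs in the main fit.

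Symbols came from RefSeq assembly MpTak2_v7.1, joined by locus number, and 3095 genes had one. Genes were named by a rule: MpFER and MpMRI, then, among genes called with an absolute log2 of 1 or more, averaging 1 CPM or more without overlap of the lines, the 4 largest each way of autosomal genes that differed more between mutants than wild types (and the 6 largest each way with a symbol), the 4 largest each way that wild types shared, the 3 largest each way that opposed them, the 2 most abundant of U and of V and the 3 most abundant each way, and up to 4 called genes of each list by adjusted p. Members and lists were chosen with earlier results of these data known.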

Additional observations from a re-analysis of the deposited data

Results flagged for a closer look

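The results below were picked out because the difference between Mpmri-1 and Mpfer-1 was itself called as different from that between Tak-2 and Tak-1 (edgeR adjusted p under 0.05). Groups of 3 libraries are too small for a test of single outlying libraries. There were 3752 such genes among those called between the mutant lines, and 835 genes were called in opposite directions. The excess of the mutant difference over the wild-type difference, on the log2 scale, was 0.87 for MpFER and 1.46 for MpMRI. It was 15.77 for Mp3g12700, 8.46 for Mp1g10370 and for its identical copy Mp5g21410, 6.55 for Mp1g07780, 6.40 for MpPOD97, 4.83 for MpDIR7, 4.18 for MpDOXC16, 4.09 for MpPR1, 3.26 for MpNBS-LRR6 and 3.22 for MpCYP829-like42. Among genes with opposite directions it was 26.71 for Mp3g10460, 22.85 for Mp6g09290, -12.20 for MpCYP704-like8 and -5.74 for Mp8g16650. On the lower side it was -11.28 for Mp6g10280, -5.81 for MpFBW3, -5.32 for Mp2g21700, -4.27 for Mp8g00400, -3.85 for MpLOX3, -3.55 for MpLOX7, -3.21 for MpC2H2-23, -2.73 for MpPOD4 and -1.87 for MpLOX16. Values for genes with a group at 0 counts depend on the prior count and are no measure of size.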

How the results depend on the processing

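Counts of genes called between Mpmri-1 and Mpfer-1 stayed within 1.5 times the reported 7216 in the settings tried: 7135 with RLE size factors, 7355 with DESeq2, 7344 with limma voom, 7082 with no filter on low counts, 5556 with only the 6 mutant libraries, 7134 without U and V genes, 8923 without TMM, and 5998 to 7555 without single libraries. Without TMM the count with an absolute log2 of at least 1 became 2284 (403 higher, 1881 lower) instead of 1522, and the log2 difference changed sign for MpPP2C_E (-0.029), MpWRKY2 (-0.059), MpBZIP9 (-0.067), MpFBX2 (-0.18), MpNOP1 (-0.12) and MpRALF1 (-0.10). The uncalled difference of MpROP turned to 0.012 with RLE and with DESeq2, and without single libraries that of MpROP ranged over -0.080 to 0.022 and that of MpLRE1 over -0.26 to 0.22. Another 17 named genes kept their direction but not their call without TMM. With only the 6 mutant libraries fitted, 9 named genes lost their call, among them MpRALF1, MpLEA-like50 and MpCEN1. MpCEN1 lost it as well with RLE size factors (edgeR adjusted p = 0.0683) and with DESeq2 (adjusted p = 0.0555). Leaving out single libraries, the count with an absolute log2 of at least 1 ranged over 1270 to 1850, the autosomal count over 5914 to 7462, genes shared in direction with the wild types over 1324 to 2119, opposed genes over 613 to 1062, genes whose contrasts differed over 2905 to 4581, MpFER over 0.96 to 1.09 and MpMRI over 1.57 to 1.69. Same-letter libraries of the lines correlated at -0.249 to -0.0805, so letters mark no pairs, and the replicate block gave 6983 calls. Depth limits genes with few counts, and folds against groups at 0 are bounds for counting error only.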
